A study of Glycine max with 5 samples.

Results

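Among the soybean genes that carry a LOC number in place of a name, 96 had a high signal in non-meristematic tissue of the seedling and a signal at the bottom of the array in root tips. They were chosen by signal on all 5 arrays. A probe set (the group of short probes that reads one transcript) was taken when it was assigned to 1 gene whose symbol was a LOC number without a RefSeq synonym. It also had to reach a signal of at least 500 on both non-meristematic arrays and to lie at or below the array's own 25th percentile, called the dim limit below, on all 3 root meristem arrays. Of the 6795 LOC-numbered probe sets, 107 met the rule. They stood for 96 of 4900 LOC-numbered genes (1.96%), out of 6029 genes that single-gene probe sets represented. Because both groups were used in the choice, the contrast between them is described for these genes and is not tested.

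The series compared 3 arrays of root apical meristem, cut as root tips of 0.5 mm, with 2 arrays of non-meristematic tissue from 10-day-old seedlings of the soybean (Glycine max) genotype Bragg. All plants had the same genotype, age, potting mix and unfertilized growth, and no treatment differed between the groups. The tissue label of the second group names leaf, whereas the dissection protocol mentions what was left of the plant, so that organ and meristem state cannot be told apart. The free-text descriptions mention embryo stages and were not used. The titles call the samples biological replicates without saying whether plants were pooled.

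A LOC number is the placeholder that NCBI gives a gene until a symbol is assigned. It says nothing about the product of the gene. Soybean is an ancient polyploid, and many of its genes have a closely similar second copy, so that a probe set can read more than the gene it is assigned to. The root apical meristem holds the dividing cells from which the root grows, beneath the root cap. Leaf and stem tissue holds green mesophyll, epidermis with cuticle and differentiated veins. The reference tables used here gave no product description for the 96 genes, all of which were listed as protein-coding. They are therefore described by their signals, by their other probe sets, by probe sets with a shared number in the name and by their neighbours in the gene order. No role is given to them.

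Marker genes were set against the tissue labels, and most but not all fell on the side of their label. Of 6 leaf and green tissue genes, 5 were lower in root meristem (limma, adjusted p of 3.09e-05 to 0.00116). The summed signal of all 6 was 5030.9 to 5322.6 on root meristem arrays against 28102.2 and 21652 on non-meristematic arrays. PSAD, a photosystem I subunit gene, was the exception, at 4661.5 to 4996.1 against 2833.1 and 3178.3. It made up most of the root meristem sum. Each marker was read on 1 probe set, which for PSAD was 1 of 5. The vegetative storage genes (3 of 3) and the sieve element genes (4 of 4) were lower as well, and the root genes (4 of 4), the genes of dividing cells (2 of 2) and the seed genes (4 of 4) were higher. None of the markers was at 0. The tissue labels do not name seed, yet the summed seed markers ran from 3836.5 to 11221.6 across the root meristem arrays against 72.1 and 43.5. The free-text descriptions of all 5 samples, those of the non-meristematic arrays included, name embryo stages. What the seed markers stand for was not tested. Over all 30941 probe sets tested, 18.1% were lower and 14.4% higher in root meristem. These markers were picked with earlier results of the same data known. The dim limit lay between 17.9 and 22.5 signal units in root meristem. It was 37 on the first non-meristematic array and 26.3 on the second. In bulk tissue, fewer cells of a type and less RNA per cell cannot be told apart.

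In non-meristematic tissue the 107 probe sets spanned a wide range of signal. They ran from 505.5 to 8535.6 on array 1, with a median of 1365.6, and from 528.1 to 10221.3 on array 2, with a median of 1429.2. In root meristem they ran from 0.2 to 21.7, with medians of 8.8, 5.8 and 6.8 on arrays 1, 2 and 3. Signals this low have no order among themselves. All 107 passed the test over all probe sets as lower in root meristem, where 18.1% of probe sets tested did, and the choice itself forced this. Where a gene had several such probe sets, the one that was brightest in non-meristematic tissue (by mean log2 signal) represents it below. By their mean signal there, 15 genes lay at 5000 or more, 21 from 2000 to 5000, 27 from 1000 to 2000 and 33 under 1000. With each root meristem array held at its dim limit, the difference was at least 64.6-fold for the median gene, from at least 29.5-fold to at least 424-fold.

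**Figure D1:**
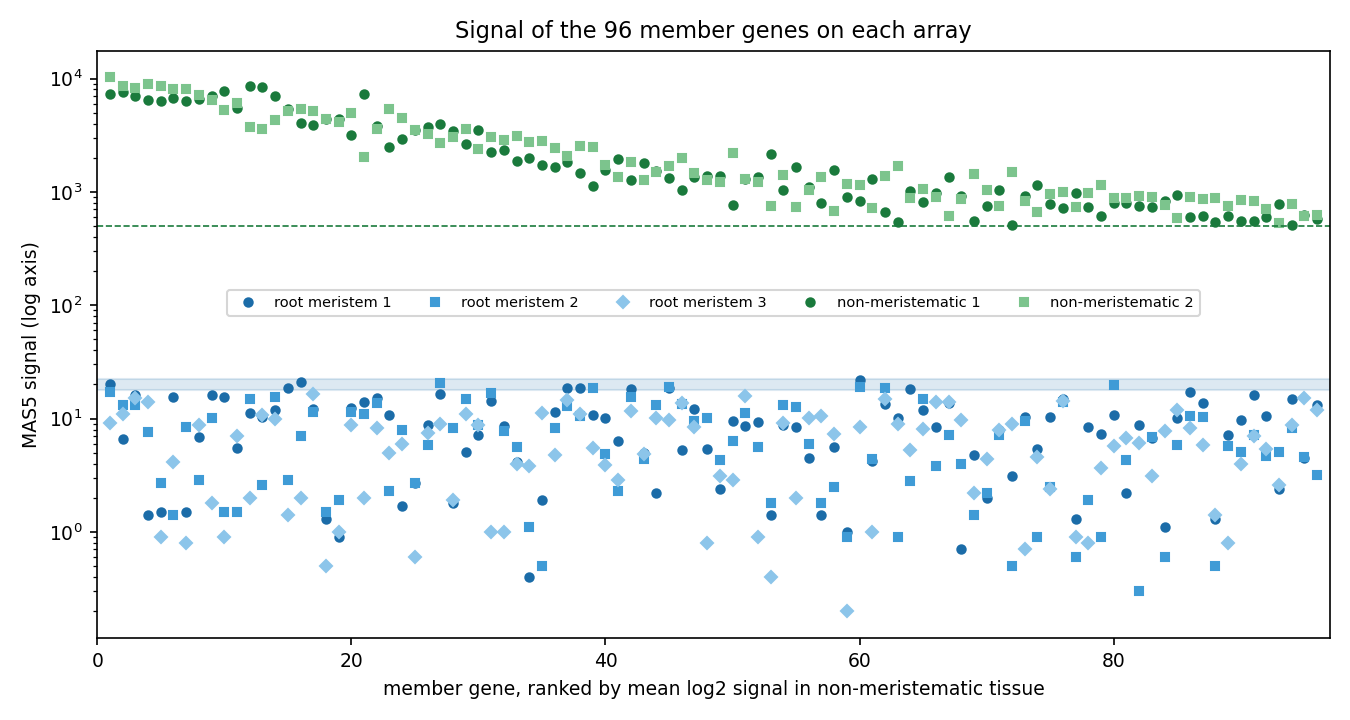
MAS5 signal (log axis) of the 96 genes on each of the 5 arrays, with genes ranked by their mean log2 signal in non-meristematic tissue. Green points are the non-meristematic arrays and blue points the root meristem arrays. The dashed line is the floor of 500, and the blue band spans the dim limits of 17.9 to 22.5. The gap between the groups follows from the rule, and the fall of the green points follows from the ranking. The distance between the 2 greens was not set by the rule, except that both had to reach 500.

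The brightest of these genes had signals near the top of the non-meristematic arrays. Signals of different probe sets do not compare amounts of transcript, so that the order is one of signal alone. For 12 genes the signal was in the top 1% of all probe sets on both non-meristematic arrays, and for 38 it was in the top 5%. LOC100305746 led with 7230 and 10221.3 in non-meristematic tissue, against 20, 17.3 and 9.1 in root meristem. LOC547605 followed with 7530.4 and 8557.9 against 6.6, 13.2 and 11. For LOC100805786 the values were 6972 and 8303.1 against 16, 13.3 and 15.3. In all 3 the second non-meristematic array was the higher one. LOC100804226 had 6442.5 and 8977.2 against 1.4, 7.6 and 14.1. A signal of 6349.2 and 8622.3 was found for LOC100793805, with 1.5, 2.7 and 0.9 in root meristem. LOC100799886 had 6681.9 and 8064.6 against 15.4, 1.4 and 4.1. These 6 genes differed by at least 362-fold to at least 424-fold. The name of a probe set can end in a suffix that flags probes shared between transcripts, as it did for 16 of the 107 and for every such probe set of 9 genes, among them LOC100305746, LOC100804226, LOC100793805 and LOC100815789.

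The next 6 in rank included genes that were higher on the first non-meristematic array. LOC100781868 had 6384.8 and 8149.2 there, against 1.5, 8.4 and 0.8 in root meristem, and LOC732571 had 6612.3 and 7099.9 against 6.9, 2.9 and 8.8. LOC100527056 had 6973.1 and 6480.1 against 16, 10.2 and 1.8. LOC100807355 was measured at 7797.6 and 5278 against 15.6, 1.5 and 0.9. Its non-meristematic arrays stood 1.48-fold apart. LOC100787491 had 5540.3 and 6050 against 5.5, 1.5 and 7. LOC100815789, at 8535.6 and 3717 against 11.3, 14.8 and 2, was 2.30-fold higher on the first non-meristematic array than on the second.

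Some of the genes had nearly the same signal on both non-meristematic arrays. LOC100170730 had 4351.1 and 4374, with 1.3, 1.5 and 0.5 in root meristem. LOC100798677 had 4376.9 and 4129.8 against 0.9, 1.9 and 1. LOC100305808 had 3491.9 and 3526.4 against 2.7, 2.7 and 0.6. In these 3, chosen after their values were seen, the non-meristematic arrays were within 1.2-fold of each other.

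Some genes lay close to the limits of the choice. Just inside the floor of 500 were LOC100305670 (505.5 and 782.6), LOC100500041 (506.4 and 1497.4) and LOC100306479 (776.1 and 528.1). Just outside it were a second probe set of LOC100500287 (496.7 and 1303.8), a second one of LOC100779056 (492.4 and 699.2) and LOC100798132 (492.3 and 729.8), each also dim in root meristem. At the dim limit, LOC100779397 (16.6, 20.6 and 8.9), LOC100305839 (21.7, 19.1 and 8.4) and LOC100810866 (10.8, 19.9 and 5.7) were just inside. LOC100790042 (10, 20.9 and 8.7), a second probe set of LOC547512 (23.3, 9.2 and 15.7) and LOC100817063 (23, 21.9 and 16.8) were just outside, with 705.9 to 2561.4 in non-meristematic tissue.

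How much the choice owed to any single array was read by applying it to the other 4 arrays. Without root meristem array 1, 114 LOC-numbered probe sets met the remaining limits, of which 107 (93.9%) were at or below the dim limit on that array. Of all 909 LOC-numbered probe sets that were dim on root meristem arrays 2 and 3, whatever their non-meristematic signal, 90.4% were. For root meristem arrays 2 and 3 the counts were 107 of 112 (95.5%, compared with 93.7%) and 107 of 116 (92.2%, compared with 93.6%). Every probe set that missed the limit on the root meristem array left out stayed under that array's median signal, with a highest value of 44.9. Without non-meristematic array 1, 107 of 136 (78.7%) reached 500 on it, compared with 82.9% of all LOC-numbered probe sets at or above 500 on array 2. Without array 2 it was 107 of 128 (83.6%, compared with 86.0%). The shares thus lay near those of LOC-numbered probe sets in general and describe how replicate arrays repeat each other. The shares of the 2 groups come from different limits and numbers of arrays and are not compared.

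The 2 non-meristematic arrays differed in these genes in both directions. Array 2 was higher for 60 genes and array 1 for 36. The arrays were within 1.2-fold for 31 genes and more than 2-fold apart for 14, of which 7 were higher on each array. Among the 107 probe sets 13.1% were more than 2-fold apart. The share was 20.9% of the 153 other probe sets that met the same signal limits, and 5.66% of the 4613 probe sets at or above 500 on both arrays that did not meet them. Array 2 was higher for 59.8%, 60.1% and 69.9% of these. The wider spread was therefore not particular to LOC-numbered genes. With 1 array on each side these differences have no replicate check. LOC100790960 stood farthest apart, at 7265.8 on array 1 and 2042.2 on array 2 (3.56-fold). LOC100815985 had 2143.4 and 749.3 (2.86-fold). In the other direction, LOC547512 had 537.7 and 1700.6 (3.16-fold) and LOC100500041 had 506.4 and 1497.4 (2.96-fold).

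A second probe set of the same gene repeated the direction where one was available. Of the 14 genes, 5 had another single-gene probe set above the dim limit on both non-meristematic arrays, 6 probe sets in all. All 6 leaned the same way as the gene's first probe set, and 4 were again more than 2-fold apart. They read the same RNA on the same 2 arrays, so that this is no replicate check of the difference. LOC547512 had 863.4 and 2561.4 on its second probe set, and LOC100500287, at 769.2 and 2184 on the first, had 496.7 and 1303.8 on the second. LOC100789895 was at 556.4 and 1429.2, then at 448.1 and 1006. LOC100815789 had 9700.6 and 5768.3 on one further probe set and 674.6 and 100.8 on another. The marker lists also moved between these arrays. The summed leaf and green tissue markers were 28102.2 on array 1 and 21652 on array 2, with CHLH, a magnesium chelatase subunit of chlorophyll synthesis, at 4480.4 and 856.4. The summed vegetative storage markers were 22141.4 and 27726.5, and the sieve element markers 4668.5 and 4374.3. The part of tissue makeup in the spread of these genes was not tested.

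**Figure D2:**
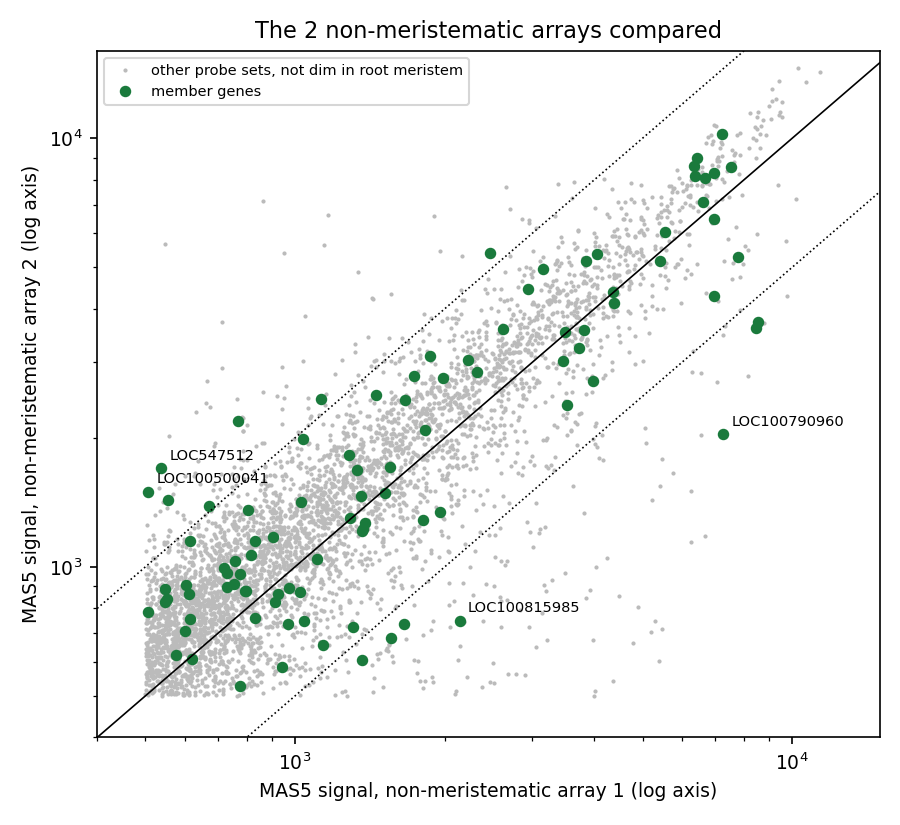
MAS5 signal on non-meristematic array 2 against array 1 (log axes). Green points are the 96 genes, and grey points are probe sets with a signal of at least 500 on both arrays that were not dim on all root meristem arrays. The solid line marks equal signal and the dotted lines a 2-fold difference, outside which 14 of the 96 genes lie, the 4 farthest of them labelled.

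Several probe sets of a gene met the rule together for 9 genes. LOC732571 and LOC100812168 each had 3 such probe sets. Those of LOC732571 had 6612.3 and 7099.9, 4399.2 and 5414.9, and 3809.9 and 3648 in non-meristematic tissue, and no value above 10 in root meristem. Those of LOC100812168 had 5429.9 and 5179.3, 3957.2 and 3578.3, and 2235.6 and 1970, with root meristem values up to 18.6. The other 7 genes had 2 each: LOC100306230, LOC100306679, LOC100500180, LOC100784455, LOC100796662, LOC100801860 and LOC100815887. Probe sets of 1 gene can share their target sequence and are not replicates. For 66 of the 96 genes a single probe set was all there was.

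Other probe sets of the same genes, which did not meet the rule, mostly leaned the same way. There were 40 of them for 27 genes. Every root meristem signal lay below every non-meristematic signal at 35 of the 40, against 29.6% of all probe sets on the array, and for 24 of the 27 genes this held for each such probe set. The genes were chosen for this contrast on the same arrays, and probe sets of a gene can share target sequence. The count is therefore no independent check. Of the 40, 16 were dim in root meristem but under 500 on at least 1 non-meristematic array, 18 were at or above 500 but not dim on every root meristem array, and 6 were neither. In 8 genes, another probe set lay above the dim limit on all 3 root meristem arrays. LOC100815789 had 87.5, 97.6 and 50.6 on such a probe set, against 9700.6 and 5768.3. LOC100499748 had 80.6, 75.9 and 45.7 against 591.9 and 1115.9. For LOC100789895 the values were 69.5, 58 and 64.3 against 448.1 and 1006, and for LOC100500315 they were 62.3, 66.5 and 54.7 against 3371.5 and 4934.4. LOC100779397 had 42.4, 40.7 and 23.8 against 4129.2 and 3249.8. In these 5 genes the groups did not overlap on that probe set.

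In 3 genes another probe set did not keep the groups apart in that direction. One probe set of LOC100815887 had 22.8, 18.5 and 22.8 in root meristem against 18.3 and 34.4, and one of LOC547512 had 14.9, 12.5 and 7.6 against 20.3 and 10.5, with the groups overlapping. The LOC547512 one was under the dim limit on every array, so that it shows no direction. Another of LOC547512, at 3.7, 3.4 and 0.3 against 13.9 and 25.8, was also dim on every array, though counted above as lower. LOC547605 had 9 other probe sets, and at 2 of them every root meristem signal was the higher one. One had 901.5, 1265.9 and 1136.7 in root meristem against 525.7 and 568.8, and the other 843.2, 888.8 and 936.9 against 477.8 and 611.8. In contrast, 2 further ones gave 35.6, 23.9 and 34.7 against 10266.9 and 14599.9, and 58.2, 55.2 and 17.4 against 9398.1 and 13630.9. A probe set assigned to the same gene was below the dim limit on all 5 arrays, at 0.5 to 5 units. The assignment of some of these probe sets to this gene is therefore uncertain, and the statement that LOC547605 was dim in root meristem rests on a choice among them.

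**Figure D3:**
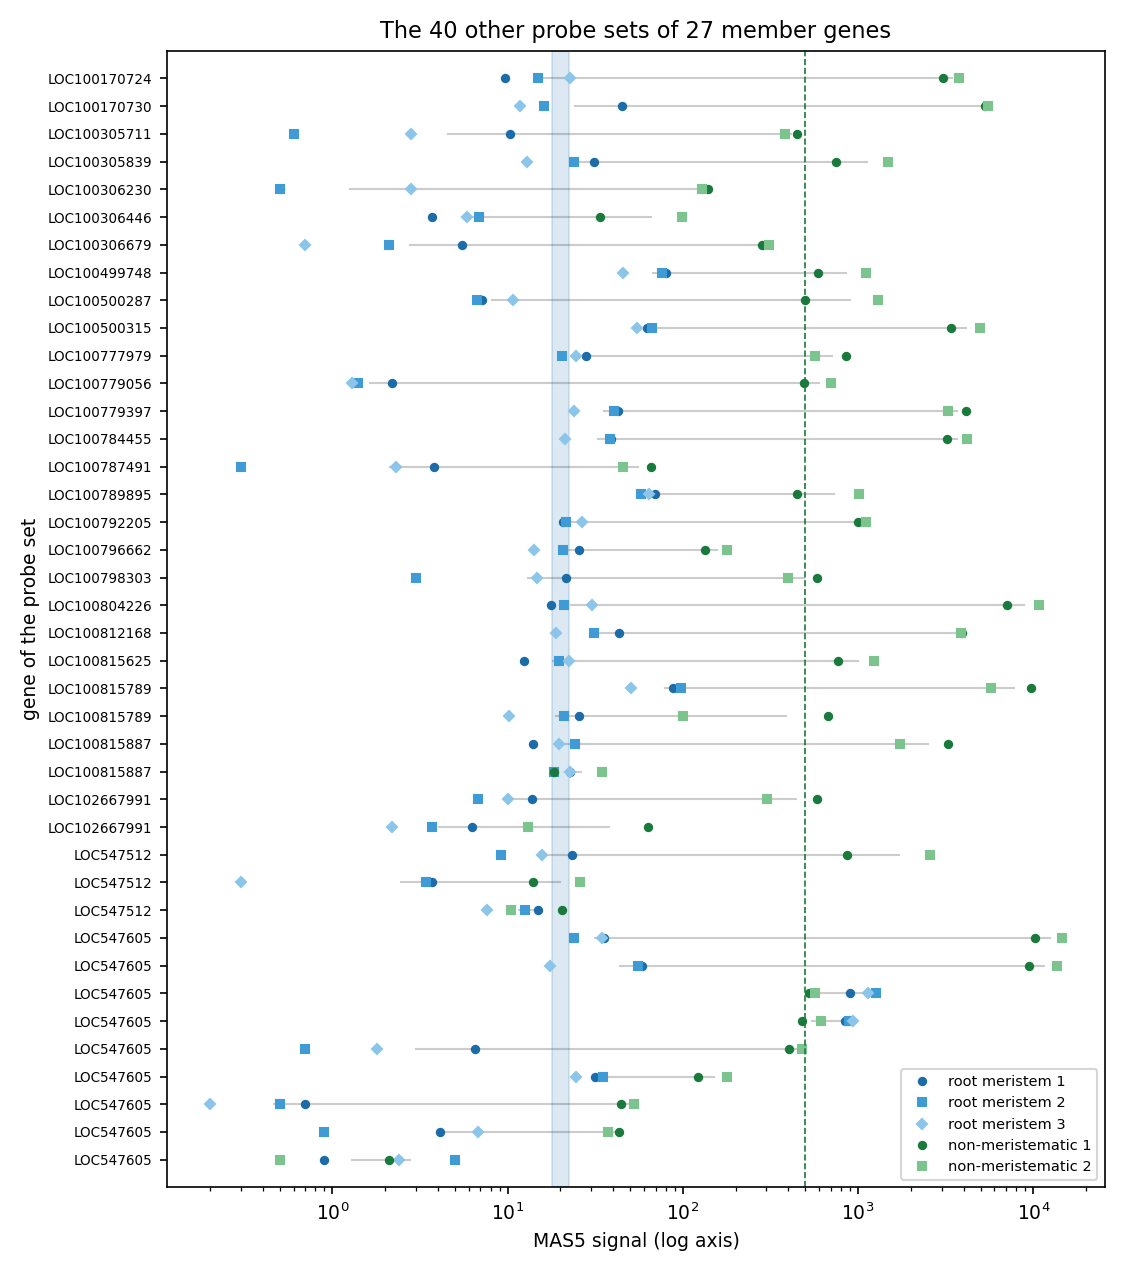
MAS5 signal (log axis) of the 40 other probe sets of 27 genes, 1 row each, with the gene's symbol at the left. Blue points are root meristem arrays, green points non-meristematic arrays, and grey lines join the group means. The blue band spans the dim limits of 17.9 to 22.5 and the dashed line is at 500. At 35 of the 40 probe sets all blue points lie left of all green points, and at 2 probe sets of LOC547605 they lie to the right.

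The probe set names carry a number, read here as that of a sequence cluster used in the design, and 3 clusters held 2 of the genes each. A shared number need not mean related sequence. The vegetative storage marker VSPA and the dividing-cell marker H4 were read on probe sets with the same number. LOC100781868 and LOC100500448 shared one, with 6384.8 and 8149.2 for the first and 2939.1 and 4459.4 for the second. Another gene of that cluster, LOC100305912, went the other way on all 3 of its probe sets there, for example with 3424.5, 3459.8 and 3721.4 in root meristem against 1889.7 and 1907.2. The brightest gene, LOC100305746, shared a cluster with LOC100809697 (12.3, 11.4 and 8.7 against 3156 and 4957.1). That cluster also held probe sets of PIP2-8, a plasma membrane aquaporin gene, at 27.8, 5 and 28.8 against 2815.3 and 4965.6 on one and 50, 51.9 and 87.3 against 1784.3 and 3075.7 on the other. The remaining cluster held LOC100499729 (11.9, 15.5 and 10 against 6973.3 and 4273.9) and LOC100779397 (16.6, 20.6 and 8.9 against 3968.6 and 2719.3). A further gene of it, LOC100306036, was at 85.1, 69.7 and 36.6 against 8027.7 and 5603.1. In all 3 clusters both partners were brighter on the same non-meristematic array. Of the 96 genes, 60 were higher on array 2, and no link between partners is read from this.

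Cluster mates were split in direction. Across all clusters of the 107 probe sets there were 18 probe sets of 13 other genes. Root meristem was lower without overlap at 9, higher without overlap at 6, and the groups overlapped at 3. Over all probe sets on the array, 29.6% were lower without overlap, and the share that was higher without overlap was not counted. The 9 included LOC100803973, a mate of LOC100812168, with 48.2, 41.5 and 8.3 against 4425.9 and 4481.4. The 6 included LOC100790071, a mate of LOC547605, with 4152.8, 4520.6 and 5126 against 1952.2 and 2347.5, and LOC547801, another mate of LOC100812168, with 5973.1, 4158.9 and 3598.3 against 1652.4 and 3086.8. LOC100306129, a mate of LOC100790960, had 6391.2, 7034.7 and 6348.4 against 4349.8 and 7622.3, so that its groups overlapped. Of the 18 probe sets, 8 had at least 500 on all root meristem arrays, where 14.7% of all probe sets and 28.8% of LOC-numbered ones did. These 8 stood for 6 mate genes, while the gene sharing their cluster was dim there. A shared cluster number was taken to mean that the sequences were grouped when the array was designed. It shows neither that the sequences are related nor that the genes have one function. These clusters also held 25 probe sets with no gene listed, of which 20 were lower and 4 higher in root meristem without overlap, and 8 met the same limits. One of the 4 had 7366.8, 6897 and 7370.3 in root meristem against 3041.7 and 3095.8. Of 6 probe sets assigned to several genes, 5 were lower and 1 was higher (1882, 1604.8 and 482 against 86.1 and 29), and 4 met the limits. Over all probe sets with no gene listed 0.403% met them, and over all those assigned to several genes 3.51% did. Such probe sets can read the same transcript as the chosen one, so that these are not counts of further genes.

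The 96 genes lay on all 20 chromosomes of the Glycine_max_v4.0 assembly, whose gene order was used and whose coordinates were not. There were 4142 pairs of array genes within 5 steps of each other in the order of protein-coding genes. Of these, 146 held at least 1 of the 96 and 5 held 2, which took in 9 of the 96. How many such pairs other sets of 96 array genes would give was not worked out, so that 5 is read neither as few nor as many. The window was chosen after the order had been seen. LOC100807723 and LOC100500372 were direct neighbours, at 7.2, 8.8 and 8.8 against 3521.1 and 2380.1 for the first and 15.2, 13.7 and 8.3 against 3809.3 and 3571.5 for the second. LOC100799805 (548.1 and 826.9 in non-meristematic tissue) and LOC100500180 (971.5 and 894.6) were also direct neighbours. LOC100305545 and LOC100790141 had 4 genes between them and similar signals, 752.2 and 914.1 for the first and 730.9 and 969.6 for the second.

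One stretch held 3 of the genes. LOC100305549 (817.3 and 1065.3), LOC100500338 (2471.1 and 5403.4) and LOC100306233 (612.6 and 864.2) followed each other with 4 protein-coding genes in each gap. All 3 were brighter on non-meristematic array 2, as 60 of the 96 genes were. Between them the array measured LOC100306662, at 224.5, 105.6 and 54.9 in root meristem against 800.8 and 1477.6. It also measured KTI3, a Kunitz trypsin inhibitor gene, at 5.6, 3.5 and 2 against 29.1 and 13.9, and LOC100500599, at 57.9, 43.8 and 15.2 against 7.8 and 0.7. KTI3 was under the dim limit on every array, and LOC100500599 was under it on root meristem array 3 and on both non-meristematic arrays. No direction is read from signals this low. The measured genes of the stretch thus did not all have a high non-meristematic signal, and not every gene in the gaps was measured.

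The same signal limits were also met by probe sets of other kinds. Among probe sets that reached 500 on both non-meristematic arrays, 107 of 1910 with a LOC number (5.602%) and 25 of 475 with a name or synonym (5.26%) were dim on all root meristem arrays. The share was 4.98% for probe sets with no gene listed and 7.18% (13 of 181) for those assigned to several genes. The named ones stood for 19 genes. They include RCAALPHA, a Rubisco activase gene, at 12.8, 7.7 and 7.5 against 5283.4 and 2927.5, and PRP3, a proline-rich cell wall protein gene, at 21, 19.4 and 1.3 against 6450.2 and 10225.5. VSP27, a vegetative storage protein gene, was at 22.5, 9.7 and 2.5 against 9196 and 11130.1. RCAALPHA was higher on non-meristematic array 1, as 36 of the 96 genes were, and PRP3 on array 2, as 60 were. The mirrored limits, at least 500 on all root meristem arrays and dim on both non-meristematic arrays, were met by 20 LOC-numbered genes, none of them among the 96. The mirrored rule asks for 3 bright arrays against 2 dim ones, at different dim limits, so that the 2 counts are not directly comparable.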

How the data were processed

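The authors deposited linear signal intensities that MAS5 had condensed from the probes of each probe set, according to the submitters' processing notes. Which version and scaling target were used, and which probe sets were called present, is not given in the sources used here. Signals of 37593 probe sets on 5 arrays were read, with array medians of 77.8 to 111.6. Arrays carry no molecule counts, so that the number of arrays limits precision.

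Genes came from the platform annotation, updated by Entrez number with a RefSeq table of Glycine_max_v4.0 (8652 of 8677 single-gene probe sets matched). Product descriptions, promoters and proteins were not used here, so that planned product classes and motif counts were left out. Signals below 0.1 were set to 0.1 before log2. For the share of calls over all probe sets, those above the 25th percentile on at least 2 arrays entered a limma 3.58.1 fit (R 4.3.3, eBayes with trend), at a Benjamini-Hochberg adjusted p below 0.05 and a log2 difference of at least 1. The procedure was tested on simulated data. Tables were made with Python 3.11.15 and pandas 2.3.3.

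Members, lists and rules were chosen with earlier results of these data known. Genes were named by rank of signal, by nearness to the limits, by disagreement between non-meristematic arrays, by further probe sets and by neighbours. Genes named from design clusters, the named genes meeting the same limits and the array that a choice left out were picked after their values were seen.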

Additional observations from a re-analysis of the deposited data

How the results depend on the processing

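The number of genes depended on the limits set and less on scaling. It was 143 with a floor of 250 and 53 with a floor of 1000. It was 13 at the 10th percentile and 180 at the 50th. The lowest of the 5 dim limits on every array gave 84 genes. Quantile normalization gave 97, of which 96 were shared, and median centring gave 86, all of them shared. There were 87 when probe sets ending in _x_at or _s_at, which may read several transcripts, were left out. Leaving out 1 array gave 101 to 122, a number that could not fall below 96 because the limit on that array then no longer applied. The median log2 difference at its bound was 6.01. It was 5.66 after median centring, and 5.92 to 6.16 with 1 array left out.

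Over all probe sets, 10060 passed. The split was 4452 higher and 5608 lower in root meristem, compared with 5719 and 4717 after quantile normalization and 7668 and 4689 after median centring. With 1 root meristem array left out, 8032 to 8769 passed, more of them lower than higher. With either non-meristematic array left out, 1 array remained in that group, and more probe sets were higher than lower, as after both rescalings. Which direction held more calls thus depended on the scaling and on the arrays used. With the replicate number as a block (replicate block) 7589 passed. Same-numbered arrays had correlations of deviations of 0.099 and -0.089, and the labels do not say that numbers pair the samples.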
